A study of Mus musculus with 9 samples.

Results

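Cells that meet unfolded protein hold it in solution with small heat shock proteins and pass it on through the BAG proteins, which dock on HSP70. The 9 genes described here are Hspb1, Cryab and Hspb8 of the small heat shock proteins and Bag1, Bag2, Bag3, Bag4, Bag5 and Bag6 of the BAG family. They were taken by gene symbol from a table of 16509 genes, and all 9 were present. The cells were MC38, a line from a mouse carcinoma of the colon, and their messenger RNA was read in 3 groups of 3 replicate libraries. Ctrl cells received vehicle, which the labels give as DMSO and the study as PBS. Cu-Cys cells received copper chloride with cystine. Cadict cells received a nanoparticle that carries copper and cystine together with glucose oxidase and the EGFR-targeting peptide GE11. Cadict therefore added at least the enzyme and the peptide to what Cu-Cys supplied, and their contributions cannot be told apart. The dose and time used for these libraries are not given in the sources used here. The study describes its replicates as biological and its cell experiments as independently repeated, without saying how the cultures behind each library were kept apart, and p-values measure the spread between these libraries.

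Small heat shock proteins share an alpha-crystallin domain, assemble into oligomers and bind unfolding proteins without using ATP. BAG proteins bind the ATPase domain of HSP70 through their BAG domain and prompt it to release its nucleotide and client, although BAG6 is an outlier whose BAG-like domain holds other partners. BAG3 also binds HSPB8, and the pair hands aggregated clients to selective autophagy. HSF1, the master regulator of the heat shock response, binds inverted repeats of the letters GAA called heat shock elements.

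The promoter letters are shown first because 3 of the genes that rose in Cadict cells carry such a repeat near their start. RefSeq windows of 250 bases before to 50 bases after the start, on the mouse build GRCm38.p6, matched 7 of the 9 genes, and Cryab and Bag4 had none. Both strands were searched for GAANNTTC and TTCNNGAA, each of which is its own reverse complement and can overlap the other. Capitals mark each match, positions are counted from the start site, and the stretches run 5′ to 3′ on the gene's strand. Hspb1 held 2 matches upstream of its start, within chr5:135887769-135887868 (plus strand, positions -150 to -51). Hspb8 held 1 match at bases 3 to 10 of its transcript, within chr5:116422845-116422934 (minus strand, positions -70 to 20). Bag3 held 1 match at bases 43 to 50 of its transcript, within chr7:128523603-128523632 (plus strand, positions 21 to 50). The matches of Hspb8 and Bag3 lay in annotated UTR sequence of GENCODE M21, and those of Hspb1 outside its annotated exons.
Hspb1: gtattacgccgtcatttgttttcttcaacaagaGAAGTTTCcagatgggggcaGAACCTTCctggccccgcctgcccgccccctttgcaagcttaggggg
Hspb8: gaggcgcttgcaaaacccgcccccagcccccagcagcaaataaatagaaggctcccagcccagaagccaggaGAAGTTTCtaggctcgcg
Bag3: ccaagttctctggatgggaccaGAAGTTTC

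No match to either arrangement was found in the windows of Bag1, Bag2, Bag5 or Bag6. Across 32851 windows of the same length, 15.1% held at least 1 match, 7.86% to GAANNTTC and 8.52% to TTCNNGAA. Hspb1, Hspb8 and Bag3 each held the same 9 letters, AGAAGTTTC, which were noticed after the levels were known and occurred in 0.429% of all windows on either strand. A match describes letters in a window and is not evidence that a factor binds there.

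Total expected counts were alike, from 17905771 to 18293056 a library, but their make-up was not. The TMM scaling factors of edgeR were 1.26 to 1.27 in Ctrl, 1.21 in Cu-Cys and 0.640 to 0.665 in Cadict libraries. Levels below are counts scaled by these factors to a common total, abbreviated CPM. Scaling by library totals instead shifted the log2 change of the median gene by -0.95 for Cadict against Ctrl and by -0.88 when Cadict was set against Cu-Cys, so that both values are given for the 9 genes in Cadict, and a shift of about that size applies to the Cadict values of other genes named. In bulk RNA, fewer cells making a transcript and less of it per cell cannot be told apart. The label of a colon carcinoma line was checked against 6 measured epithelial markers, which summed to 5.32 to 6.83 CPM in Ctrl, 3.97 to 4.38 in Cu-Cys and 24.0 to 26.1 in Cadict. Of these, 2 exceeded 1 CPM on average in Ctrl, Cdh1 at 4.86 and Krt19 at 1.05, and Epcam was at 0 in all Ctrl libraries. The 6 fibroblast markers summed to 692 to 726, 402 to 407 and 177 to 193 CPM. Of these, 4 exceeded 1 CPM on average in Ctrl, with Col1a2 at 568 making up most of the sum, while Dcn was at 0.608 and Lum at 0. Summed muscle markers were at 3.46 to 4.03, 1.64 to 2.31 and 5.54 to 8.24 CPM, while leukocyte, endothelial and lens markers summed to at most 1.05, 3.61 and 0.865 CPM in any library. The muscle sum hides opposite moves, since mean Des fell from 3.27 CPM in Ctrl to 1.28 in Cadict while Acta1 rose from 0.535 to 5.96. The part of these differences in the results below was not tested. Replicate 2 of Cadict stood apart from the other Cadict libraries, with a chi-square per degree of freedom of 14.7 and 23.1 against 3.64 between the other Cadict replicates. Leaving it out moved no log2 change of the 8 genes other than Hspb1 by more than 0.12.

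**Figure D1:**
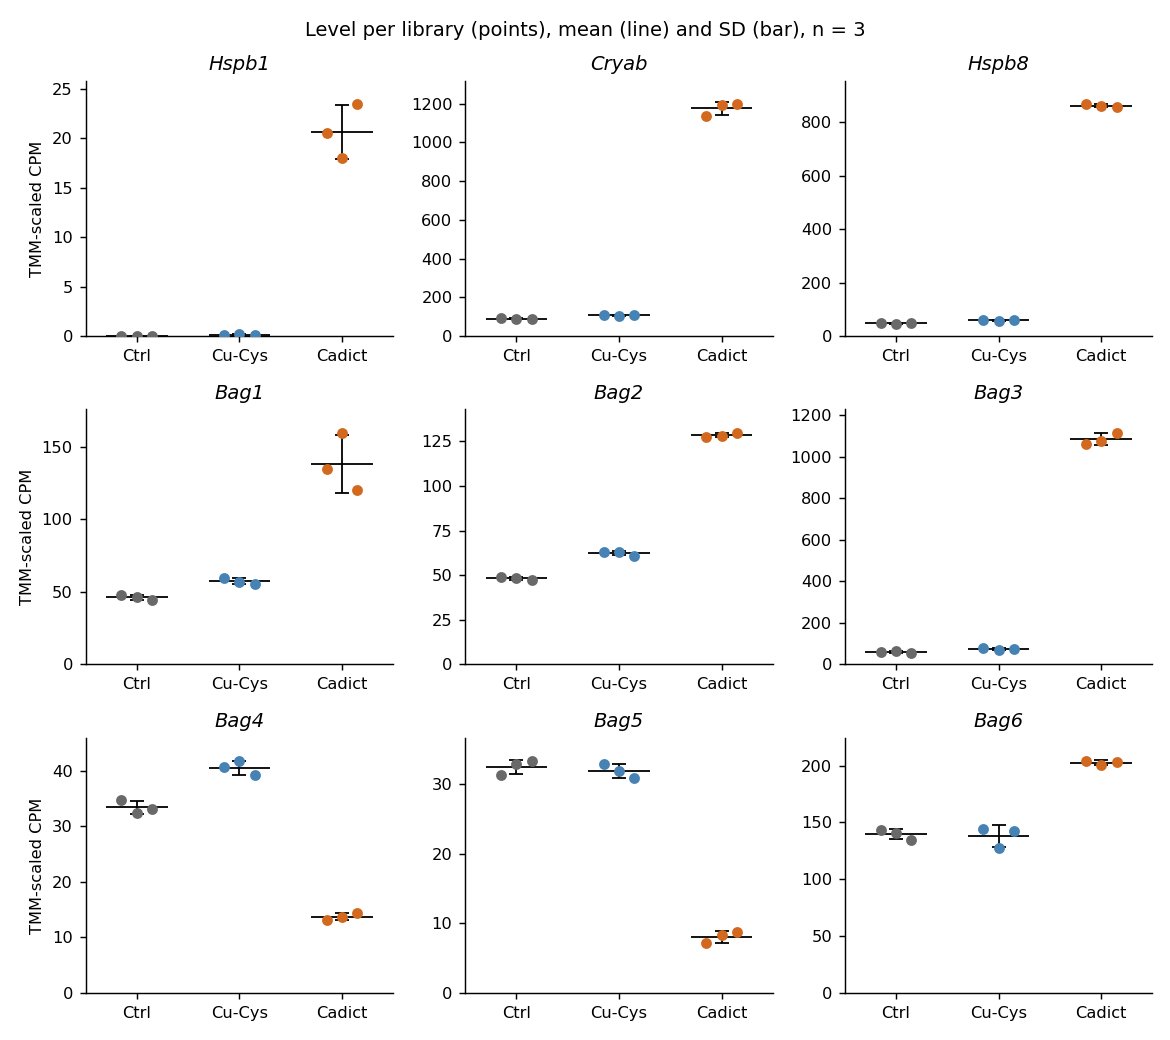
Level of each of the 9 genes in TMM-scaled CPM (vertical axes, each from 0) in the 3 groups, with a point per library, a line at the mean and a bar of 1 SD. The Cadict points lie above the others for 7 genes and below them for Bag4 and Bag5. With library totals as the scaling, Bag6 turns to lower in Cadict.

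Cadict cells held far more RNA of all 3 small heat shock proteins and of Bag3 than Ctrl cells. They held less of Bag4 and Bag5, and with TMM scaling moderately more of Bag1 and Bag2. A gene was called at the study's threshold, a fold change of at least 2 with an adjusted p of at most 0.001, and passed the test at an adjusted p of at most 0.05. Of the 9 genes, 6 were called higher in Cadict than in Ctrl cells, beside 20.7% of the 11949 genes tested, and 2 were called lower, beside 27.1%. At the looser threshold 7 passed as higher, Bag6 among them although it turned with library totals, and 2 as lower, beside 40.6% and 47.1% of all genes tested. Hspb1 passed the filter on low counts only through its Cadict libraries, so that its place in each of these counts of higher genes carries no weight. Under library totals 4 genes were called higher and 2 lower, since Bag1 and Bag2 no longer reached 2-fold, and 11.9% of all calls were of higher genes, against 43.3% with TMM.

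Hspb1 (Entrez 15507) encodes HSP25, the mouse form of HSP27, a chaperone that also guards actin filaments. It was nearly silent outside Cadict cells. Its expected counts were 1, 0 and 0 in the Ctrl libraries, 2, 4 and 2 in Cu-Cys, and 241, 206 and 279 in Cadict. No Cadict library overlapped another group. In CPM the Cadict libraries held 20.5, 18.0 and 23.4, while a count of 0 in a Ctrl library allows up to 3 counts, or 0.130 to 0.131 CPM. The ratio of summed counts, 726 in Cadict to 1 in Ctrl, came to 1428 after TMM scaling, with an exact 95% interval of 256 to 56490 that covers counting error only, and to 738 (132 to 29169) with library totals. A fitted fold change rests on the prior count here and gives no bound. Of the 50-base stretches in Hspb1 transcripts, 50.1% also occurred in the processed pseudogene Hsp25-ps1 or in Gm9817. Neither was among the deposited genes, so the level of Hspb1 depends on a treatment of such reads that cannot be seen here.

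Cryab (Entrez 12955) encodes alpha B-crystallin, a small heat shock protein of lens and muscle that binds desmin and other filaments. By TPM, a level per transcript length that sums to the same total in each library, it was the most abundant of the 9 genes in every group. Its level was 93.0, 89.8 and 85.5 CPM in the Ctrl libraries and 109, 106 and 106 CPM in Cu-Cys. The Cadict libraries held 1137, 1192 and 1197 CPM, so that all 3 groups were separate. The mean rose 13.1-fold from Ctrl to Cadict, a log2 change of 3.72 ± 0.05 (SE; adjusted p = 4.51e-17, edgeR quasi-likelihood, Benjamini-Hochberg). With library totals the log2 change was 2.76. Among all genes of a library, Cryab moved from between place 464 and 506 by TPM in Ctrl to between place 93 and 114 in Cadict.

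Hspb8 (Entrez 80888) encodes HSP22, the small heat shock protein that works bound to BAG3. Ctrl libraries held 47.5, 44.6 and 49.2 CPM, and Cu-Cys libraries 60.7, 57.9 and 59.2 CPM. Cadict libraries held 867, 859 and 858 CPM, well clear of the other groups. The mean was 18.3-fold that of Ctrl (log2 change 4.19 ± 0.05 (SE), adjusted p = 2.31e-17, edgeR quasi-likelihood, Benjamini-Hochberg), and the log2 change was 3.24 under library totals. Hspb8 moved from place 2400 to 2641 by TPM in Ctrl to place 300 to 342 in Cadict.

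Bag3 (Entrez 29810) encodes the stress-inducible BAG protein, the partner of HSPB8 and HSP70 in selective autophagy. It held 60.6, 62.6 and 57.1 CPM in the Ctrl libraries, 77.1, 69.8 and 73.0 in Cu-Cys, and 1065, 1077 and 1117 in Cadict. The groups did not overlap, and the gap to Cadict was many times the spread within it. The mean rose 18.1-fold (log2 change 4.18 ± 0.06 (SE), adjusted p = 4.39e-17, edgeR quasi-likelihood, Benjamini-Hochberg), or by 3.22 on the log2 scale with library totals.

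Bag1 and Bag2 rose to a lesser degree. Bag1 (Entrez 12017), an exchange factor of HSP70 that links it to the proteasome and to BCL2, held 48.0, 46.3 and 44.2 CPM in Ctrl, 59.5, 56.9 and 55.4 in Cu-Cys, and 135, 160 and 120 in Cadict. Its Cadict libraries were the most scattered of the 6 BAG genes relative to their mean, with replicate 2 on top. All 3 lay above the other groups in CPM, while in TPM they overlapped Cu-Cys. The log2 change from Ctrl was 1.58 ± 0.08 (SE; adjusted p = 4.02e-11, edgeR quasi-likelihood, Benjamini-Hochberg), 0.63 with library totals and 1.46 without replicate 2. Bag2 (Entrez 213539), an inhibitor of the ubiquitin ligase CHIP, held 48.8, 48.5 and 47.4 CPM in Ctrl, 62.8, 63.2 and 61.0 in Cu-Cys, and 128, 128 and 130 in Cadict. In CPM the 3 groups were separate and tight. In TPM the Cadict libraries, at 76.0, 66.4 and 81.5, overlapped both Ctrl (71.6, 69.2 and 67.4) and Cu-Cys (81.5, 81.4 and 80.2). The log2 change from Ctrl was 1.41 ± 0.05 (SE; adjusted p = 2.69e-13, edgeR quasi-likelihood, Benjamini-Hochberg) and 0.46 with library totals. On deposited TPM, limma gave Bag2 a log2 change of 0.10 that did not pass (adjusted p = 0.214).

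Bag6 (Entrez 224727) encodes a large scaffold that escorts tail-anchored and mislocalized membrane proteins. Its direction in Cadict turned with the scaling, and no direction is therefore given for it. Expected counts were 3311, 3252 and 3090 in Ctrl, 3130, 2779 and 3124 in Cu-Cys, and 2399, 2300 and 2424 in Cadict. Cadict libraries were the lowest by count. In TMM-scaled CPM they were the highest, at 203 ± 1.88 (SD, n = 3) against 140 ± 4.37 in Ctrl. The log2 change from Ctrl was 0.54 ± 0.05 (SE; adjusted p = 1.47e-07, edgeR quasi-likelihood, Benjamini-Hochberg) with TMM and -0.42 with library totals, and neither reached 2-fold.

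Bag4 and Bag5 moved the other way. Bag4 (Entrez 67384), also called SODD, silences the death domain of TNFR1 and held 34.6, 32.4 and 33.2 CPM in Ctrl. It held 40.6, 41.7 and 39.2 CPM in Cu-Cys but 13.2, 13.7 and 14.4 in Cadict. Each Cadict library lay below every other library, a mean 2.43-fold lower than in Ctrl. The log2 change was -1.28 ± 0.07 (SE; adjusted p = 7.56e-11, edgeR quasi-likelihood, Benjamini-Hochberg), or -2.23 with library totals.

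Bag5 (Entrez 70369) is unusual in being built of several BAG domains in a row, and is known to hold back the ubiquitin ligase parkin. Its level was 31.4, 32.9 and 33.4 CPM in Ctrl, 33.0, 32.0 and 31.0 in Cu-Cys, and 7.14, 8.37 and 8.82 in Cadict. Ctrl and Cu-Cys overlapped, and the Cadict libraries were separate from both. The mean was 4.02-fold lower in Cadict than in Ctrl, with a 95% interval of -2.18 to -1.82 for the log2 change (SE 0.08; adjusted p = 2.96e-12, edgeR quasi-likelihood, Benjamini-Hochberg). With library totals the log2 change was -2.96. The place of Bag5 in the TPM order fell from 4028 to 4216 in Ctrl to 7220 to 7594 in Cadict, a change that no scaling between libraries can alter.

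**Figure D2:**
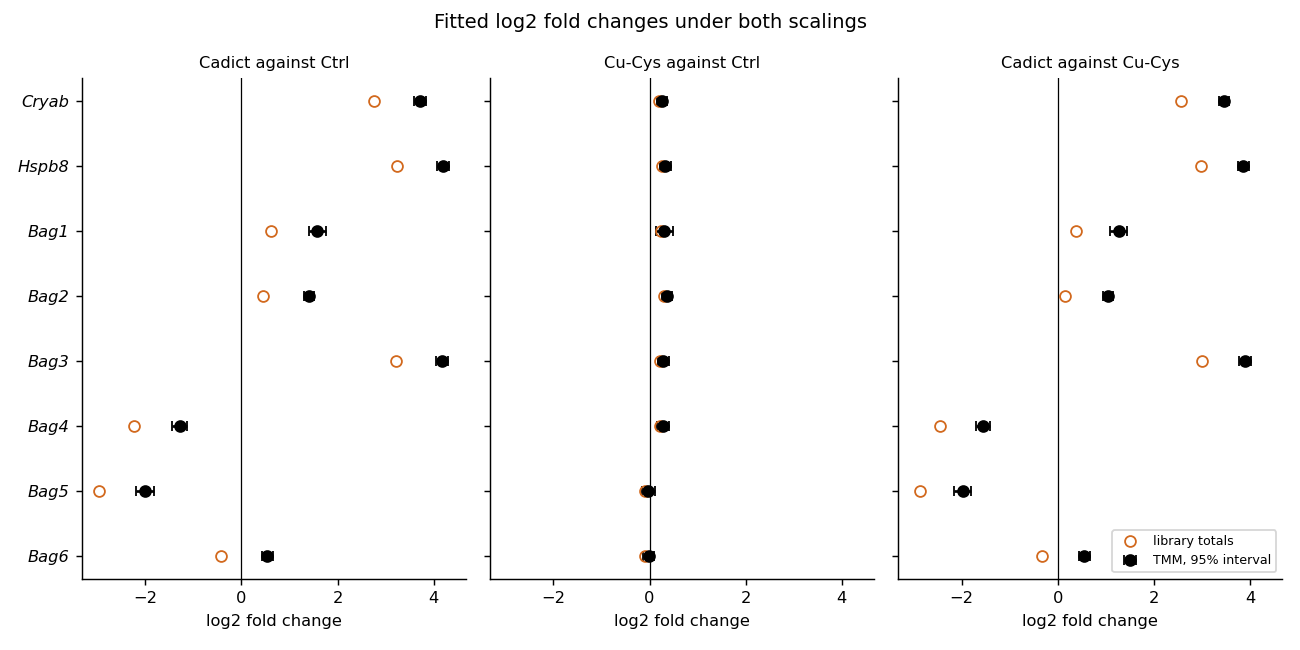
Fitted log2 fold change (horizontal axis, shared by the 3 panels) of 8 genes in the 3 comparisons, with filled points and 95% intervals for TMM scaling and open points for library totals. Hspb1 is left out because its fold rests on 1 Ctrl count. Scaling moves every Cadict value by about the same amount, which carries Bag6 across 0 from 0.54 to -0.42 against Ctrl and leaves Bag4 and Bag5 below 0.

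Copper with cystine alone moved these genes by small amounts. No gene of the 9 was called in Cu-Cys against Ctrl at the study's threshold, beside 0.167% of all genes called higher and 1.47% called lower. With the looser test (adjusted p up to 0.05), 6 passed as higher, beside 22.6% of all genes, and 0 as lower, beside 22.4%. Mean CPM of these 6 genes was between 1.20-fold (Cryab) and 1.29-fold (Bag2) that of Ctrl. Bag2 had a log2 change of 0.37 ± 0.05 (SE; adjusted p = 2.84e-05, edgeR quasi-likelihood, Benjamini-Hochberg). Hspb8 followed at 0.33 ± 0.05 (adjusted p = 0.000155), then Bag1 at 0.31 ± 0.08 (adjusted p = 0.00718), Bag3 at 0.29 ± 0.06 (adjusted p = 0.000775), Bag4 at 0.28 ± 0.06 (adjusted p = 0.00111) and Cryab at 0.26 ± 0.05 (adjusted p = 0.000820), all from the same edgeR fit. Bag4 was thus higher in Cu-Cys and lower in Cadict than in Ctrl, with no overlap between the 3 groups. On deposited TPM, limma no longer passed 5 of the 6, with adjusted p of 0.102 for Cryab, 0.0668 for Hspb8, 0.0649 for Bag1, 0.201 for Bag3 and 0.282 for Bag4. On deposited FPKM, limma passed these 5, with adjusted p of 0.00552, 0.00189, 0.035, 0.00969 and 0.0271 in the same order.

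The other 3 genes did not pass in Cu-Cys against Ctrl. Bag5 had a log2 change of -0.03 with a 95% interval of -0.16 to 0.11, and Bag6 one of -0.02 with an interval of -0.13 to 0.10, so that changes of that size in either direction are compatible with these libraries. Hspb1 had 8 summed counts in Cu-Cys against 1 in Ctrl, a ratio of 8.45 after TMM scaling with an exact 95% counting interval of 1.13 to 375. Hspb1 entered this test only through its Cadict libraries. Its adjusted p of 0.0552 in edgeR's quasi-likelihood fit therefore carries no weight, and whether it passed depended on the method.

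Cadict also stood apart from Cu-Cys, a comparison that measures the difference between the responses to both treatments directly and uses no Ctrl library as its reference. Here 6 of the 9 genes were called higher, beside 18.6% of all genes tested, and 2 lower, beside 23.6%, while 7 (Bag6 included, which turned with library totals) and 2 of them passed the looser test in these directions, beside 40.3% and 45.6%. Under library totals the calls were 4 and 2, and higher genes made up 10.8% of all calls against 44.1% with TMM. Hspb1, tested only through its Cadict libraries, is again in each count of higher genes and carries no weight there. The log2 change was 3.89 ± 0.06 (SE) for Bag3 (adjusted p = 9.23e-17), 3.86 ± 0.05 for Hspb8 (adjusted p = 5.93e-17) and 3.46 ± 0.05 for Cryab (adjusted p = 9.77e-17) in edgeR's quasi-likelihood fit, adjusted by Benjamini-Hochberg, and 3.00, 2.98 and 2.57 in the same order with library totals. Bag1 and Bag2 lay near the 2-fold limit, at 1.27 ± 0.08 and 1.04 ± 0.05, and at 0.38 and 0.16 with library totals. Neither passed with limma on TPM, where Bag2 turned to -0.12 (adjusted p = 0.137) and Bag1 had 0.09 (adjusted p = 0.191). Bag6 again turned, from 0.55 with TMM to -0.33 with library totals. Bag4 had a log2 change of -1.56 ± 0.07 and Bag5 one of -1.98 ± 0.08 (SE), or -2.44 and -2.86 with library totals. Hspb1 had 726 against 8 summed counts, a ratio of 169 with an exact 95% counting interval of 85.3 to 393, or 91.5 (46.2 to 213) with library totals.

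Compared with each other per length, the genes changed their order. In Ctrl cells the mean TPM ran from Cryab at 310 through Bag1 at 96.8, Bag6 at 86.8, Bag2 at 69.4, Hspb8 at 67.7, Bag3 at 56.6, Bag5 at 38.3 and Bag4 at 15.9 to Hspb1 at 0.0533. Of these neighbours only Bag2 and Hspb8 overlapped between libraries. In Cu-Cys cells the ends of the order were the same, and Bag2, Bag6 and Hspb8, at 81.0, 77.6 and 77.0 TPM, overlapped their neighbours. In Cadict cells the order was Cryab at 1829, Hspb8 at 500, Bag3 at 415, Bag1 at 116, Bag2 at 74.6, Bag6 at 51.1, Hspb1 at 31.0, Bag5 at 3.77 and Bag4 at 2.67 TPM, where only Hspb8 and Bag3 overlapped. Bag3 thus went from the fourth of the BAG genes to the first, and Bag5, ahead of Hspb1 by far in Ctrl, fell behind it.

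Shares within a family do not depend on how libraries are scaled against each other. Bag3 made up 15.4%, 16.0% and 15.2% of the summed BAG family TPM in the Ctrl libraries, 16.6%, 16.0% and 16.6% in Cu-Cys, and 62.4%, 60.7% and 64.5% in Cadict. Ctrl and Cu-Cys overlapped, and Cadict was far above both. Bag1 went from 26.6% ± 0.462 (SD, n = 3) in Ctrl to 17.6% ± 2.29 in Cadict, and Bag6 from 23.8% ± 0.195 to 7.70% ± 0.211. Bag4 and Bag5 held 4.38% and 10.5% of the family in Ctrl and shrank to 0.401% and 0.567% in Cadict. The summed BAG family TPM itself went from 364 ± 14.3 in Ctrl to 381 ± 11.8 in Cu-Cys and 663 ± 54.7 in Cadict. Among the small heat shock proteins the shares barely moved by comparison, with Cryab at 82.1% ± 1.05, 81.6% ± 0.301 and 77.5% ± 0.560 of their summed TPM in Ctrl, Cu-Cys and Cadict, Hspb8 at 17.9%, 18.3% and 21.2%, and Hspb1 at 0.0134% and 0.0979% in Ctrl and Cu-Cys and at 1.32%, 1.12% and 1.46% in the Cadict libraries. Their summed TPM was 378 ± 16.6, 422 ± 12.4 and 2361 ± 223, or 0.0378%, 0.0422% and 0.236% of all TPM.

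**Figure D3:**
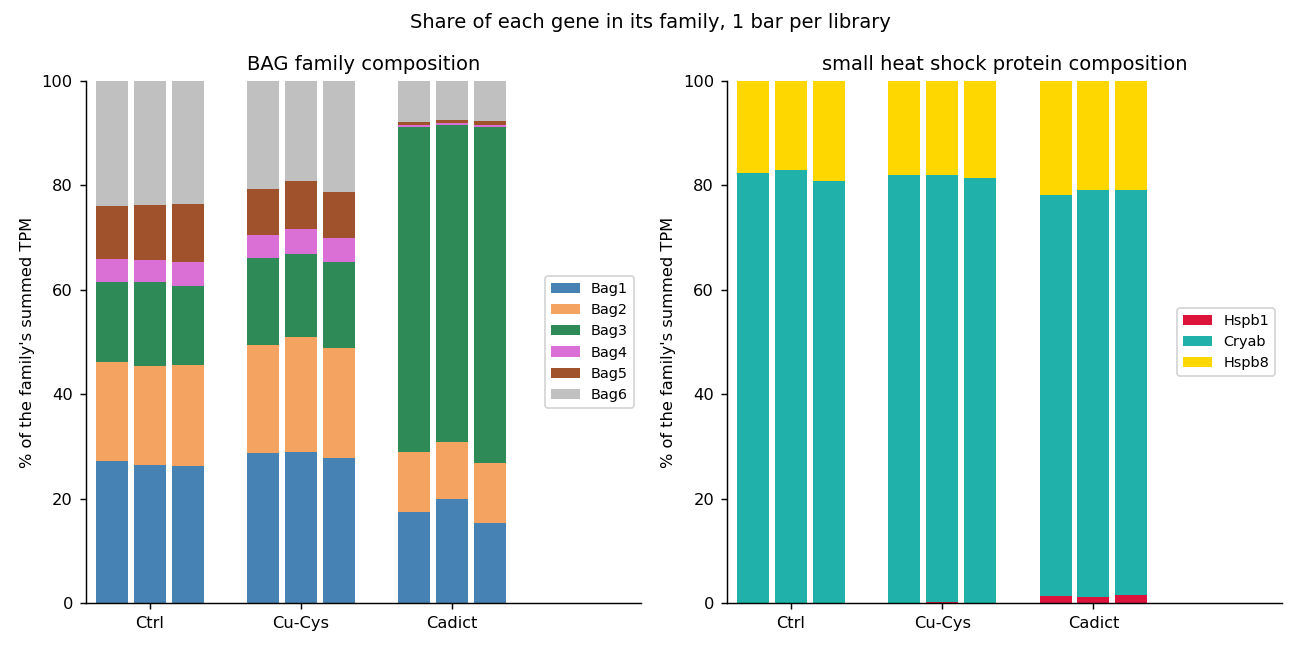
Share of each gene in the summed TPM of its family (vertical axis, percent), with 1 stacked bar per library in the 3 groups. Bag3 fills 60.7% to 64.5% of the BAG bars in Cadict against 15.2% to 16.6% elsewhere, while Bag4 and Bag5 all but vanish from them, and the bars of the small heat shock proteins stay mostly Cryab.

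HSPB8 and BAG3 work as a pair, and the ratio of their RNAs was of the same order in all groups. The ratio of Hspb8 to Bag3 TPM within a library was 1.19, 1.09 and 1.32 in Ctrl, 1.20, 1.26 and 1.23 in Cu-Cys, and 1.24, 1.21 and 1.17 in Cadict, so that all 3 groups overlapped although their mean TPM was 7.39-fold and 7.33-fold higher in Cadict than in Ctrl. The ratio of Bag3 to Bag1, which compete for HSP70 with different outlets for the client, was 0.568, 0.608 and 0.578 in Ctrl, 0.580, 0.552 and 0.597 in Cu-Cys, and 3.58, 3.05 and 4.20 in Cadict. Cadict lay 6.17-fold above Ctrl without overlap, and Ctrl and Cu-Cys overlapped. The ratio of Cryab to Hspb8 was lower in Cadict, at 3.66 ± 0.114 (SD, n = 3) against 4.59 ± 0.319 in Ctrl, also without overlap. The ratios were chosen after the levels had been seen and are given as a description, with no test.

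**Figure D4:**
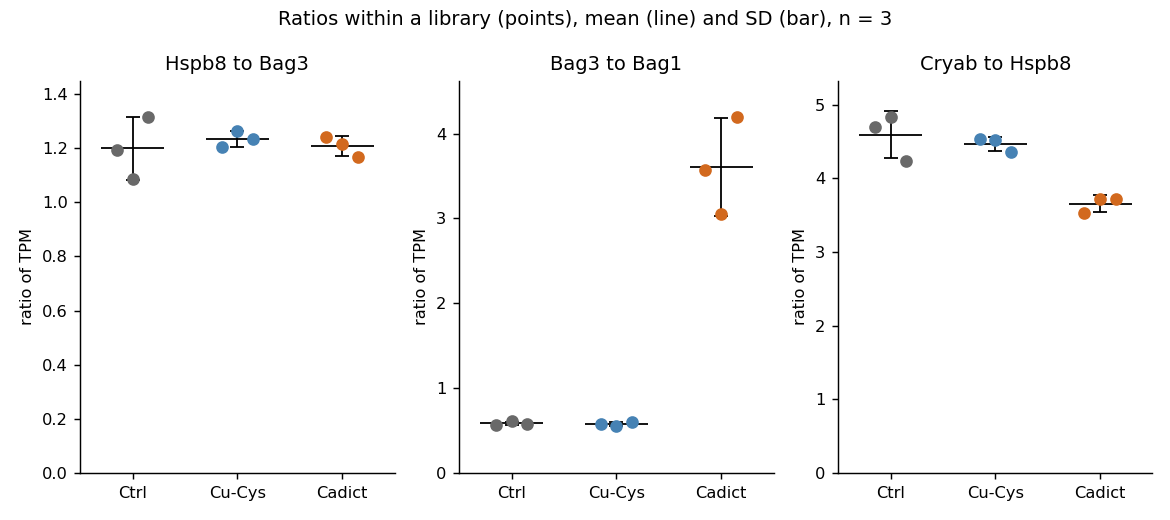
Ratio of TPM between pairs of genes within each library (vertical axes from 0), with points for libraries, lines for means and bars of 1 SD. Hspb8 to Bag3 stays between 1.09 and 1.32 in all libraries, Bag3 to Bag1 rises from 0.585 to 3.61 on average in Cadict, and Cryab to Hspb8 drops to 3.66.

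The gene whose pattern over the 9 libraries was most like that of Hspb8, among 8550 genes with a mean of at least 10 CPM, was Bag3. Their root mean square difference was 0.0746 in log2 CPM relative to each gene's own Ctrl mean, with a small constant added to CPM before the logarithm. Next to Hspb8 came Mafk at 0.105 and Arl5b at 0.107. Slc6a9, a glycine transporter, lay at 0.0949 from Bag3. Within 0.2 of Bag3 lay 9 genes, and within 0.2 of Hspb8 lay 10, while Cryab stood at 0.265 and 0.281 from them. For Hspb1, with 1 count in all of Ctrl, that constant sets the size of the step to Cadict. Its closest genes would follow from the constant and are not given. These distances are descriptions over 9 libraries in 3 groups and are dominated by the step to Cadict.

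The remaining small heat shock proteins were scarce. Of 7 such genes listed, 6 were measured and only Hspb6, or HSP20, was abundant enough to test. It held 13.3 ± 1.12, 13.8 ± 1.01 and 9.23 ± 1.20 CPM (mean ± SD, n = 3) in Ctrl, Cu-Cys and Cadict, and fell by 0.52 on the log2 scale in Cadict against Ctrl (SE 0.11, adjusted p = 0.000381, edgeR quasi-likelihood with Benjamini-Hochberg), or by 1.48 with library totals. Hspb2, which lies beside Cryab on the opposite strand, had at most 10 counts in any library, and Hspb7 at most 6. Hspb3, Hspb9 and Odf1 had at most 2, so that their levels cannot be compared at this depth. In Cadict libraries Cryab had 13386, 13680 and 14251 counts where Hspb2 had 9, 8 and 1.

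Stress-inducible HSP70, the chaperone on which the BAG proteins act, rose steeply in the same cells. Of 9 genes for cytosolic HSP70 forms and their other exchange factors, Cadict against Ctrl had 7 called higher and 1 called lower, beside 20.7% and 27.1% of all genes tested. Hspa1a passed the filter on low counts only through its Cadict libraries, so that its place among the 7 carries no weight. Cu-Cys against Ctrl had 7 that passed as higher and 1 as lower, beside 22.6% and 22.4%, none of these called. Their median log2 change was 2.27 in Cadict, 1.31 with library totals, beside -0.13 for all genes tested. Hspa1b, a stress-inducible HSP70, went from 432, 483 and 437 counts in Ctrl and 608, 666 and 850 in Cu-Cys to 325327, 257259 and 325338 in Cadict, a log2 change of 10.37 ± 0.14 (SE; adjusted p = 3.21e-17, edgeR quasi-likelihood, Benjamini-Hochberg). Its near-identical copy Hspa1a was listed with 1.27, 0 and 1.26 counts in Ctrl and 17124.5, 13380.4 and 16765.6 in Cadict, and the division of reads between the copies is uncertain. Hsph1, or HSP110, an exchange factor of HSP70, went from 407 ± 10.4 to 11013 ± 298 CPM (SD, n = 3). Hspa2, a testis-enriched HSP70, fell by 1.31 on the log2 scale, and Hspa1l changed by -0.11 without passing the test (adjusted p = 0.420, edgeR).

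The 16 genes listed as driven by HSF1, 5 of them also on the HSP70 list, passed as higher in Cadict against Ctrl, beside 40.6% of all genes tested, and 15 were called higher, beside 20.7%. Hspa1a is again among both counts and carries no weight there. In Cu-Cys against Ctrl 14 passed as higher, beside 22.6%, 0 as lower and 0 were called. The median log2 change was 2.79 in Cadict, and it was 0.44 in Cu-Cys or 0.41 with Hspa1a taken at 3 counts, beside -0.13 and 0.01 for all genes. Dnajb1, an HSP40 partner of HSP70, had a log2 change of 4.60 ± 0.06 (SE) in Cadict against Ctrl, above the 4.18 of Bag3 and 4.19 of Hspb8. Hspe1, the mitochondrial HSP10, had 3.78 ± 0.09, beside 3.72 for Cryab. These 2 genes were named after their values were seen. Hsf1 itself, the regulator, is 1 of the 16 that passed as higher and is included in these medians. It had 0.31 with TMM and -0.64 with library totals, so that its direction turned with the scaling.

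Genes of the autophagy route served by BAG3 and HSPB8 were mostly higher too, although fewer so with library totals. Of 12 tested, in Cadict against Ctrl 11 passed as higher and 1 as lower, beside 40.6% and 47.1% of all genes, and 8 were called higher, beside 20.7%, with a median log2 change of 1.56, while with library totals 8 of the 12 lay above 0 and the median was 0.60. Sqstm1, the autophagy receptor p62, rose most, from 365 ± 8.57 in Ctrl to 547 ± 10.8 in Cu-Cys and 10252 ± 212 CPM in Cadict (SD, n = 3; log2 change from Ctrl to Cadict 4.81, adjusted p = 5.76e-18, edgeR quasi-likelihood, Benjamini-Hochberg). The autophagosome proteins Gabarapl1 and Map1lc3b had log2 changes of 3.33 ± 0.06 and 2.85 ± 0.06 (SE). Stub1, the gene for the ubiquitin ligase CHIP that BAG2 inhibits, had 0.26 with TMM and -0.69 with library totals. In Cu-Cys against Ctrl 5 of the 12 passed as higher and 2 as lower, beside 22.6% and 22.4% of all genes.

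BAG6 hands tail-anchored proteins to a dedicated insertion route. Of 6 tested genes listed for BAG6 and tail-anchored proteins, 4 passed as higher and 2 as lower in Cadict against Ctrl. The shares of all genes were 40.6% and 47.1%, and with library totals 2 of the 6 lay above 0. The 2 lower genes were Get1 and Rnf126. Rnf126, for a ubiquitin ligase and not an insertion factor, had a log2 change of -0.63 (-1.58 with library totals). Get3, the ATPase that carries tail anchors to the membrane, had a log2 change of 1.61 ± 0.06 (SE; 0.66 with library totals), and Get4, which binds BAG6, one of 1.04 ± 0.08 (0.08 with library totals). Get1, part of the receptor at the endoplasmic reticulum, fell from 23.6 ± 0.963 to 4.76 ± 0.827 CPM (SD, n = 3), a log2 change of -2.31 with TMM and -3.26 with library totals (adjusted p = 8.76e-12 with TMM, edgeR quasi-likelihood, Benjamini-Hochberg). Of 4 tested genes for other BAG partners, 1 passed as higher and 2 as lower, beside the same shares of all genes. Bcl2, the survival factor bound by BAG1, fell by 1.95 on the log2 scale. Tnfrsf1a, the receptor silenced by BAG4, had 0.31 with TMM and -0.64 with library totals.

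**Figure D5:**
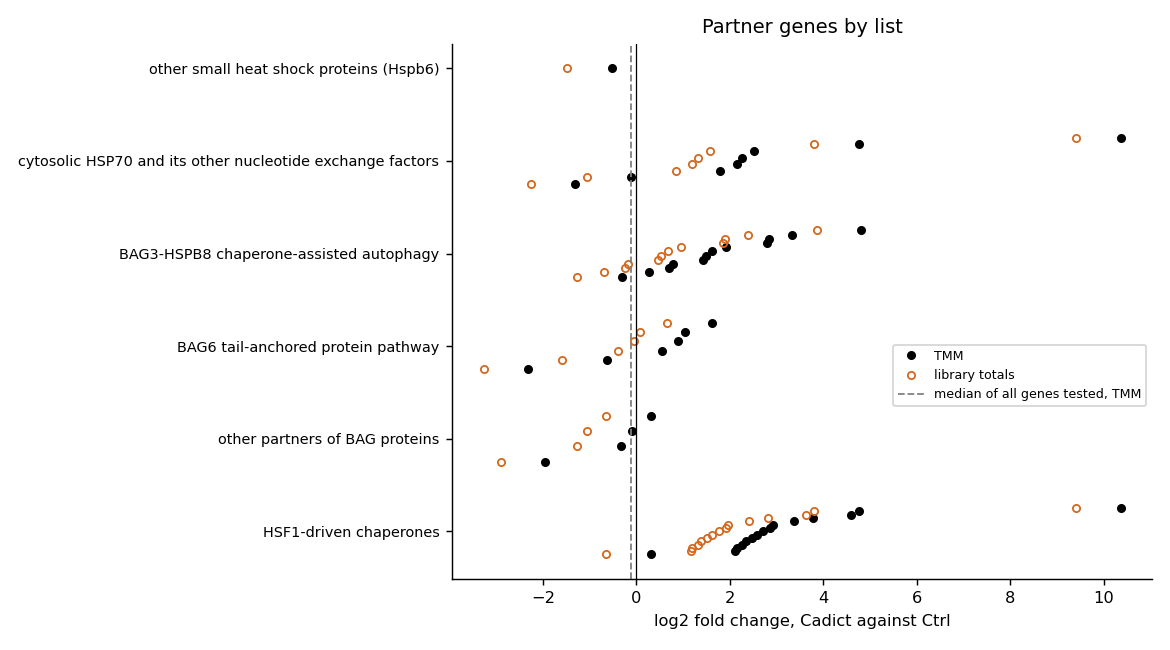
Log2 fold change of each tested partner gene in Cadict against Ctrl (horizontal axis), by list, with filled points for TMM scaling, open points for library totals and a dashed line at the median of all genes tested, -0.13. The filled points of the HSF1-driven chaperones lie to the right of that line, and those points that sit left of 0 as open circles and right of it as filled ones, Hsf1, Stub1, Nbr1, Flna, Ubl4a, Sgta and Tnfrsf1a, change direction with the scaling. Hspa1a is left out because its Ctrl libraries held almost no counts.

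Sharing of reads was small for most of the genes. No 50-base stretch of Hspb8, Bag1, Bag3, Bag5 or Bag6 transcripts occurred in another annotated gene, while 13.3% of those of Cryab occurred in Hspb2, 13.6% of those of Bag4 in the noncoding RNA Gm17484 and 2.72% of those of Bag2 in Gm37905, all on the opposite strand. The sources do not state whether the libraries kept strand, so reads from such pairs cannot be told apart. Bag1, Bag4 and Bag5 each have a gene that starts within 1000 bases on the opposite strand. Chmp5, beside Bag1, had a log2 change of 0.43 in Cadict against Ctrl (-0.52 with library totals), against 1.58 for Bag1. Lsm1, beside Bag4, had 1.17 (0.22 with library totals) against -1.28 for Bag4, and Coa8, beside Bag5, had 0.30 (-0.66 with library totals) where the interval of Bag5 was -2.18 to -1.82. These neighbours were looked up in GENCODE M21 after the values were known, and the differences between neighbours were not tested.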

How the data were processed

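Of 9 MC38 libraries, 3 each of Ctrl, Cu-Cys and Cadict, the authors deposited per gene an expected count (estimated reads, not normalized), FPKM and TPM, with size-factor counts and group averages that were not used here. Columns named CC were taken as Cu-Cys by initials, and CCGE as Cadict from its components. The submitters' processing notes name HISAT2 2.1.0, Bowtie2 2.3.4.3 and RSEM 1.3.1 with GRCm39 and GRCh38.p13, without roles. The study names TRIzol and a Novaseq instrument, whereas the labels name a column kit and DNA nanoballs.

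After rounding, the expected counts went into edgeR 4.0.16 under R 4.3.3 (filterByExpr, TMM, 1 quasi-likelihood fit of 3 groups), with Benjamini-Hochberg adjustment over 11949 genes. The procedure was tested on simulated counts in which a small share of genes changed and library make-up did not shift. That test therefore does not bear on the choice of scaling. Deposited TPM gave shares, ratios and order. Alternatives were DESeq2 1.42.0, limma 3.58.1 on the log2 of the authors' TPM and FPKM with pseudocounts of 1 and 0.1, and those named in the closing section. The genes, their partner lists and the tests were chosen with earlier results of these data known. Named were the 9 genes, all other small heat shock proteins, from each partner list the 3 genes with the largest absolute log2 change in Cadict against Ctrl at a mean of at least 10 CPM, and the 3 genes most like each of the 3 members that changed most. Some genes that this rule names are not reported here. Other names were chosen after their values were seen. Exact intervals of the Hspb1 ratios cover counting error only, and those of log2 changes were approximated from the edgeR fit and include the spread between libraries. Each SE is the absolute log2 change divided by the square root of its F statistic, and the intervals use t quantiles.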

Additional observations from a re-analysis of the deposited data

How the results depend on the processing

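The number of the 9 genes called was 8 for Cadict against Ctrl, 0 for Cu-Cys against Ctrl and 8 for Cadict against Cu-Cys, and it stayed between 6 and 8, at 0, and between 6 and 8 under library totals, DESeq2 size factors, both filters, the DESeq2 Wald test, limma on TPM and FPKM, and each library left out, where it was always 8, 0 and 8. The 6 came from library totals and limma. Hspb1, tested only through its Cadict libraries, is in the counts of both Cadict comparisons and carries no weight there. Without a filter on low counts Cadict against Cu-Cys gave 7, and with at least 10 counts in every library, which drops Hspb1, both gave 7. Bag6 reversed in Cadict against Ctrl with library totals (-0.42), limma on TPM (-0.76, or -0.77 with a pseudocount of 0.1) and limma on FPKM (-0.41), and in Cadict against Cu-Cys likewise (-0.33, -0.60, -0.60 and -0.33). Bag2 reversed in Cadict against Cu-Cys with limma on TPM (-0.12 with either pseudocount). Near 0 in Cu-Cys against Ctrl, Bag5 reversed with DESeq2 size factors (0.00092) and the Wald test (0.00092), and Bag6 with size factors (0.010), the Wald test (0.010), without Ctrl replicate 1 (0.0027) and without Cu-Cys replicate 2 (0.041), in a range of -0.057 to 0.041 over libraries left out. Library totals, TPM and FPKM by construction leave out the TMM factors. Using expected counts not divided by length moved the Bag3 share of the BAG family to 16.7%, 18.2% and 68.9% in Ctrl, Cu-Cys and Cadict, and the Cryab share of the small heat shock proteins to 65.5%, 64.3% and 57.1%. With each library left out the Bag3 share ran from 15.3% to 15.7%, 16.3% to 16.6% and 61.5% to 63.4%, and the Cryab share from 81.7% to 82.6%, 81.5% to 81.8% and 77.3% to 77.8%.

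With the replicate number as a block, 8, 0 and 8 genes were called, Hspb1 again in each 8 without weight. With this block 1 result crossed the threshold of 0.05, Hspb1 in Cu-Cys against Ctrl (adjusted p = 0.0464, edgeR). The numbers were not treated as pairs, since the deviations of same-numbered libraries correlated between -0.192 and 0.161 over 8551 genes. Hspb1 in Cu-Cys against Ctrl also passed with the DESeq2 Wald test (adjusted p = 0.0476), limma (0.0373 on TPM with a pseudocount of 1) and without Ctrl replicate 1 (0.0429), Cadict replicate 2 (0.0319) or Cadict replicate 3 (0.0376), and the cause was not tested. Since Hspb1 was tested only through its Cadict libraries, these results carry no weight either. Depth limits what can be said of Hspb1, with 1 count in all of Ctrl.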
